A study of Bos taurus with 12 samples.

Results

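The level of 10 genes that modify and fold collagen inside the cell was followed in cattle growth plate cartilage: the prolyl 4-hydroxylase subunits P4HA1, P4HA2 and P4HA3, the prolyl 3-hydroxylases P3H1 and P3H2, the lysyl hydroxylases PLOD1, PLOD2 and PLOD3, the P3H1 partner CRTAP, and SERPINH1, the chaperone also known as HSP47. They were taken by gene symbol, and all 10 were present among the 9155 named genes, with 12 probe sets out of 24016. PLOD1 and PLOD2 had a pair of probe sets each. The brightest probe set stands for a gene unless stated otherwise.

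New collagen chains are hydroxylated in the endoplasmic reticulum before they fold. Prolyl 4-hydroxylation gives the triple helix its heat stability, lysyl hydroxylation prepares sites for sugars and cross-links, and prolyl 3-hydroxylation alters a small number of prolines. The hydroxylases need oxygen, iron, 2-oxoglutarate and ascorbate, and SERPINH1 binds the folded helix and travels with it towards the Golgi. Cartilage depends on these steps because most of its matrix protein is collagen.

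The cells were chondrocytes of the distal metacarpal growth plate of male dairy cattle younger than 10 months, freed by Collagenase P for 4 hours and parted by density. The lightest fraction is the hypertrophic zone (HZ), where chondrocytes enlarge and mineralise their matrix, and the heaviest is the reserve zone (RZ), which holds resting precursors. The labels name no treatment or genotype, and no marker was used in the separation. Each of the 12 arrays measured 1 fraction, in 6 numbered pairs of HZ and RZ, and the labels do not say whether a pair came from 1 animal, so the p-values cover pair-to-pair spread, whatever its source.

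The zones bore their known markers only in part. Of 9 measured hypertrophic markers, MMP13, IHH, ALPL, PTH1R and MEF2C rose in HZ and 4 did not pass. COL10A1 was among the 4 (log2 difference 0.11 ± 0.16, SE) and bright in both zones, with mean signals of 21620 in HZ and 20147 in RZ. SPP1, also among them, had 18261 in HZ and 14727 in RZ. The probe sets of IBSP, another of the 4, disagreed, at 0.14 for the brighter and 2.20 for the other (limma adjusted p = 0.00125). All 4 measured reserve zone markers (SFRP5, PTHLH, APOE and CLU) fell. Of 5 measured chondrocyte markers 0 passed in limma at their brightest probe set, and COL2A1 had mean signals of 25060 in HZ and 23572 in RZ. Pairs 1 and 2 differed from pairs 3 to 6 in the step size of the deposited values. So for SERPINH1, P4HA3, P3H1, P3H2, PLOD3 and COL1A1 differences are also given within each set. The log2 ratio of 3′ to 5′ GAPDH probes, a sign of RNA degradation or short labelled copies, was 1.46 on HZ-3 and 1.21 on HZ-4 and at most 0.50 on the other arrays. This ratio was higher in HZ in 5 of 6 pairs (means 0.52 ± 0.65 and 0.10 ± 0.28, SD, n = 6; two-sided exact permutation p = 0.125). The same ratio for actin was also higher in HZ in 5 of 6 pairs (3.03 ± 0.68 and 2.34 ± 0.45, SD, n = 6; exact permutation p = 0.0625). The actin ratio was highest on HZ-4 (3.96) and HZ-3 (3.52), and HZ-1 had 3.38 beside 1.83 on RZ-1. For EF1A the ratio was higher in HZ in 1 of 6 pairs (exact permutation p = 0.406). That was pair 3, with -1.81 on HZ-3 and -2.65 on RZ-3. The part of RNA quality in the zone differences was not tested.

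In HZ, SERPINH1, P4HA3 and P3H1 fell, P3H2 rose, and the other 6 genes did not pass. A gene passed when its adjusted p was under 0.05 in limma with the pair as a block and Benjamini-Hochberg adjustment over all 24016 probe sets. So 3 of 10 fell and 1 of 10 rose, where 2.96% of all probe sets fell and 3.26% rose. These shares include dim probe sets, while all 10 genes had mean signals above 100. In a fit of the 12043 probe sets with a mean signal of at least 100, 1338 fell and 1032 rose in limma. There 4 of the 10 genes fell and 1 rose. The log2 difference, HZ minus RZ, lay below 0 in 9 of the 10 genes, with a median of -0.42, beside 51.1% of the 9155 named genes and a median of -0.01. Of the 10 genes, 4 had the same sign in all 6 pairs, which 14.0% of all probe sets had. Signal below is a probe set's brightness in arbitrary units, and differences are on the scale of log2(signal + 16). These arrays read RNA from many cells at once, so fewer cells with a transcript and less of it per cell cannot be told apart.

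**Figure D1:**
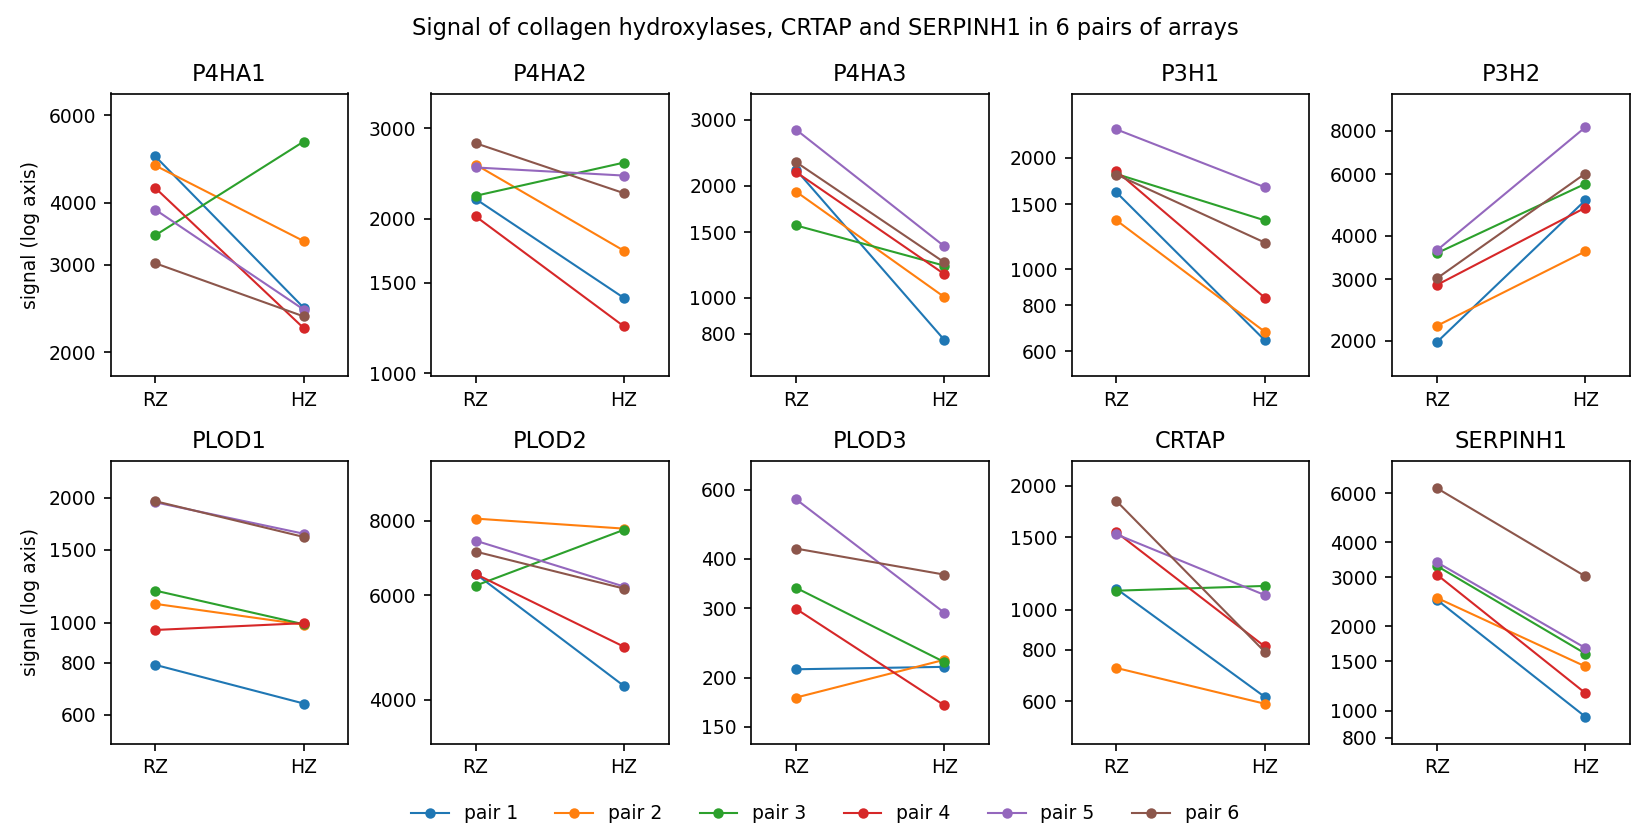
Signal of each gene's brightest probe set (arbitrary units, log axis) in RZ and HZ, with 1 line for each of the 6 pairs of arrays. All 6 lines fall from RZ to HZ for SERPINH1, P4HA3 and P3H1 and all 6 rise for P3H2, while pair 3 rises for P4HA1, P4HA2 and PLOD2.

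SERPINH1, which holds the triple helix together on its way out of the endoplasmic reticulum, showed the largest fall of the 10 genes. Its signal in HZ ran from 951 over a median of 1519 to 3026, and in RZ from 2495 over a median of 3184 to 6263. Of the 6 HZ arrays, 5 lay below the lowest RZ array, and HZ-6 was the exception. Pair 6 was high in both zones, with 3026 in HZ and 6263 in RZ. The means were 1641 ± 731 and 3510 ± 1401 (SD, n = 6), and the log2 difference was -1.11 ± 0.14 (SE, limma adjusted p = 0.00414), 2.16-fold lower in HZ. SERPINH1 was lower in 6 of 6 pairs, by 0.81 to 1.40 on the log2 scale. It gave -1.09 in pairs 1 and 2 and -1.12 in pairs 3 to 6. It was the 1 gene of the 10 to pass within pairs 3 to 6 alone (limma adjusted p = 0.0384), where 1.40% of all probe sets passed. Leaving out any 1 pair kept the call each time, at -1.17 to -1.06. Without both pairs 3 and 4 it gave -1.06 but did not pass (limma adjusted p = 0.0541).

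Prolyl 4-hydroxylase is a tetramer of catalytic alpha subunits, of which there are 3 kinds, and the beta subunit P4HB. Of the alpha subunits, P4HA3 fell. Its HZ signal ran from 769 over a median of 1187 to 1373 and its RZ signal from 1563 over a median of 2189 to 2827. P4HA3 was the 1 gene of the 10 whose zones had no overlap, as 2.89% of all probe sets had. Its means were 1127 ± 213 in HZ and 2168 ± 420 in RZ (SD, n = 6), and its log2 difference was -0.93 ± 0.17 (SE, limma adjusted p = 0.0131), 1.91-fold lower in HZ. It was lower in 6 of 6 pairs, least in pair 3 at -0.36 and most in pair 1. Within pairs 1 and 2 it gave -1.22 and within pairs 3 to 6 -0.79 (limma adjusted p = 0.108 there), and it passed in neither set alone. It also lost the call without pair 5 (limma adjusted p = 0.0512) and on the deposited ratios (limma adjusted p = 0.0508), with differences of -0.92 and -0.95. Without both pairs 3 and 4 it gave -1.09 and did not pass (limma adjusted p = 0.0541).

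P4HA1, the alpha subunit found in most tissues, had signals of 2235 to 5315 in HZ (median 2447) and 3021 to 4964 in RZ (median 4080). Of the HZ arrays, 4 lay below all RZ arrays, but HZ-3, at 5315, lay above them all. The log2 difference was -0.47 ± 0.22 (SE, limma adjusted p = 0.234), with a 95% interval of -0.96 to 0.01. P4HA1 was lower in 5 of 6 pairs, and pair 3 gave 0.63. Without pair 3 it passed as lower, at -0.69 (limma adjusted p = 0.0418). P4HA2, an alpha subunit known from cartilage and bone cells, ran from 1233 over a median of 1987 to 2574 in HZ and from 2022 over a median of 2367 to 2808 in RZ. It gave -0.34 ± 0.17 (SE, limma adjusted p = 0.263; 95% interval -0.71 to 0.03), was lower in 5 of 6 pairs and stood at 0.21 in pair 3.

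The prolyl 3-hydroxylases moved in opposite directions. P3H1 works in a complex with CRTAP and the cyclophilin PPIB on fibrillar collagens, and its loss causes brittle bone disease. Its signal ran from 643 over a median of 1009 to 1667 in HZ and from 1357 over a median of 1807 to 2389 in RZ, and 5 of 6 HZ arrays lay below the lowest RZ array. P3H1 fell by 0.82 on the log2 scale (SE 0.17, limma adjusted p = 0.0214), from a mean of 1803 ± 340 in RZ to 1060 ± 410 in HZ (SD, n = 6), 1.77-fold. Pairs 1 and 2 averaged -1.15 and pairs 3 to 6 averaged -0.66 (limma adjusted p = 0.17 there), and P3H1 passed in neither set alone. It was lower in 6 of 6 pairs, from -1.31 in pair 1 to -0.41 in pair 3. This was the least firm of the 4 calls, since it held when pair 3 or pair 6 was left out but not when any of the other 4 was (limma adjusted p of 0.0508 to 0.0716), and not without the pair block (limma adjusted p = 0.0783), with 1 added to the signal (0.0619) or on the deposited ratios (0.0665).

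P3H2, which is known to act on the collagen IV of basement membranes, ran from 3608 over a median of 5342 to 8174 in HZ and from 1982 over a median of 2955 to 3632 in RZ. Of the HZ arrays, 5 lay above the highest RZ array, and HZ-2, at 3608, lay just under RZ-5, at 3632. The means were 5551 ± 1529 and 2883 ± 680 (SD, n = 6), and P3H2 rose by 0.93 ± 0.15 on the log2 scale (SE, limma adjusted p = 0.00997), 1.91-fold. The rise was seen in 6 of 6 pairs, from 0.66 to 1.34. Pairs 1 and 2 averaged 1.02, and pairs 3 to 6 averaged 0.89 (limma adjusted p = 0.0744 there). It passed whichever pair was left out, and without both pairs 3 and 4 it gave 1.05 and did not pass (limma adjusted p = 0.0547). Its collagen IV substrate chain COL4A1 gave -0.40 ± 0.18 (SE, limma adjusted p = 0.230) at its brighter probe set and fell by 0.76 at the dimmer one (SE 0.17, limma adjusted p = 0.0293).

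CRTAP, the helper that P3H1 needs to be stable, lay lower in HZ but did not pass. It ran from 591 over a median of 802 to 1142 in HZ and from 722 over a median of 1324 to 1837 in RZ, and 2 HZ arrays lay below the lowest RZ array. The log2 difference was -0.62 ± 0.18 (SE, limma adjusted p = 0.0826; 95% interval -1.03 to -0.20). CRTAP was lower in 5 of 6 pairs, most in pair 6 at -1.20, and stood at 0.04 in pair 3. It passed as lower without pair 3, at -0.75 (limma adjusted p = 0.0451), with 64 added to the signal (-0.59, adjusted p = 0.0485), among probe sets with a mean signal of at least 100 (adjusted p = 0.0231) and with a variance trend (adjusted p = 0.0353). PPIB, the third protein of the complex, gave -0.29 ± 0.17 (SE, limma adjusted p = 0.361).

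None of the lysyl hydroxylases passed in limma, and 0 of their 5 probe sets had an unadjusted p under 0.05. PLOD1 and PLOD3 act mainly on the helical part of collagen, with PLOD3 also adding sugars, and PLOD2 acts on the telopeptides, where cross-links start. PLOD1 ran from 638 to 1639 in HZ and from 791 to 1964 in RZ (medians 994 and 1152), a log2 difference of -0.20 ± 0.13 (SE, limma adjusted p = 0.426; 95% interval -0.50 to 0.10). Its signal varied more between pairs than between zones, with the highest values of both zones in pairs 5 and 6. The dimmer PLOD1 probe set gave -0.38 ± 0.19 (SE, limma adjusted p = 0.275). PLOD2 ran from 4217 to 7760 in HZ and from 6222 to 8067 in RZ (medians 6176 and 6807), with -0.21 ± 0.16 (SE, limma adjusted p = 0.503; 95% interval -0.56 to 0.15). Of its HZ arrays, 4 lay below all RZ arrays, while HZ-2 and HZ-3 lay among the RZ arrays. The dimmer PLOD2 probe set gave -0.35 ± 0.18 (SE, limma adjusted p = 0.304), and both stood at 0.31 in pair 3.

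PLOD3 had the lowest signals, from 170 to 365 in HZ and from 178 to 567 in RZ (medians 221 and 319). Its log2 difference was -0.36 ± 0.19 (SE, limma adjusted p = 0.298; 95% interval -0.78 to 0.06). PLOD3 was higher in HZ in pairs 1 and 2 (0.02 and 0.29) and lower in pairs 3 to 6 (-0.92 to -0.21). The difference between these sets of pairs, 0.78, did not pass (limma adjusted p = 0.978), and 0.00833% of all probe sets passed that test. None of the other 9 genes passed it in limma, and 0 of them had an unadjusted p under 0.05.

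**Figure D2:**
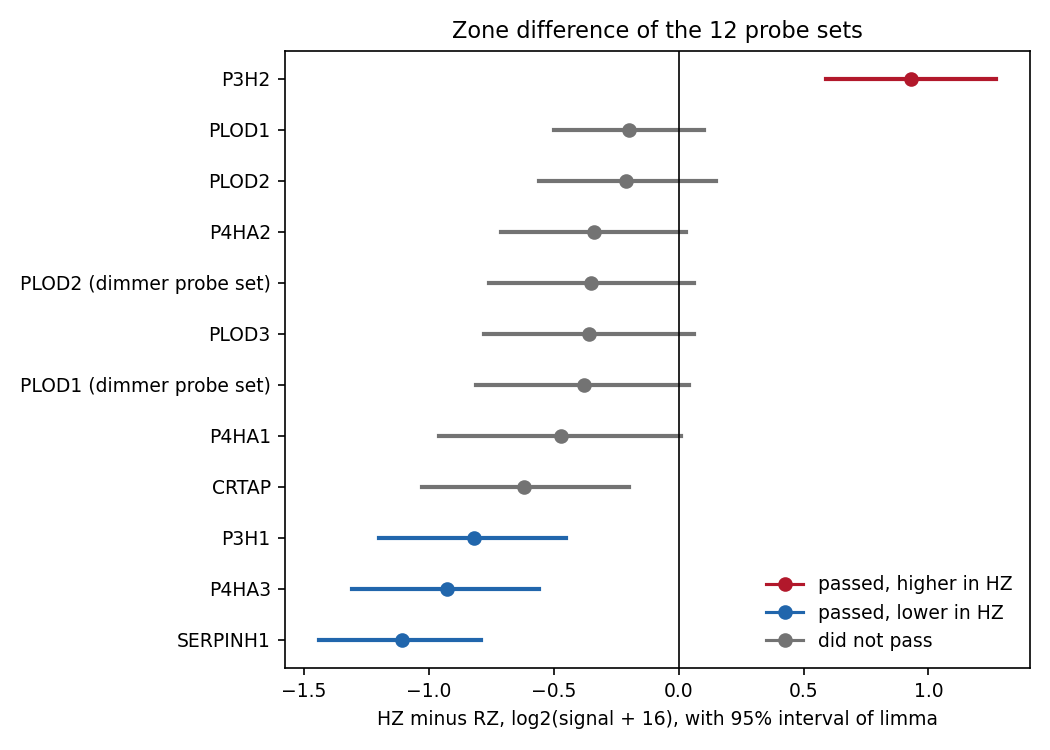
Log2 difference between HZ and RZ for the 12 probe sets of the 10 genes, with the 95% interval of limma over 6 pairs (horizontal axis, log2(signal + 16)). SERPINH1, P4HA3 and P3H1 lie below 0, P3H2 lies at 0.93, and the intervals of P4HA1, P4HA2 and all PLOD probe sets include 0.

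Pair 3 stood apart from the other pairs. There 5 of the 10 genes were lower in HZ and the members' median difference was -0.11, where the other pairs had 8 or 9 lower and medians of -0.83 to -0.34. Over all probe sets, 42.3% were lower in HZ in pair 3, with a median of 0.10, and 48.9% to 57.5% in the other pairs. P4HA1, P4HA2, PLOD2, CRTAP and P3H2 were the genes higher in HZ in pair 3, and SERPINH1 still stood at -1.04. The GAPDH 3′ to 5′ log2 ratio of HZ-3 was 1.46 beside 0.19 on RZ-3. The ratios were 3.52 beside 2.87 for actin and -1.81 beside -2.65 for EF1A. The part of RNA quality in these values was not tested. Pair 4, in which HZ had a GAPDH ratio of 1.21 and RZ 0.33, showed 8 genes lower and a median of -0.83. Without pair 3, 5 of the 10 genes passed as lower (SERPINH1, P4HA3, P3H1, CRTAP and P4HA1), with 3.73% of all probe sets.

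**Figure D3:**
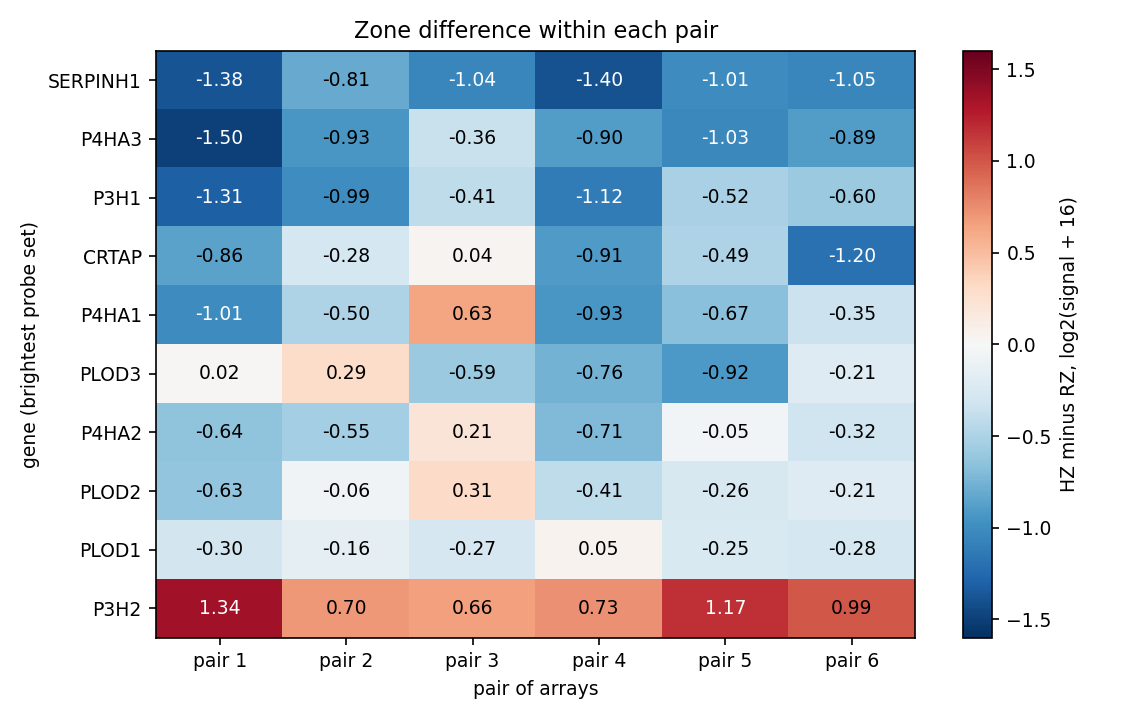
Log2 difference between HZ and RZ within each of the 6 pairs (columns) for the brightest probe set of each gene (rows), with blue for lower and red for higher in HZ. SERPINH1 stays between -1.40 and -0.81, and pair 3 holds positive values for P4HA1 (0.63), PLOD2 (0.31), P4HA2 (0.21) and CRTAP (0.04).

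Zone effects were also set against each other within families, in 8 comparisons with an exact sign-flip permutation test over the 6 pairs (two-sided, smallest possible p = 0.03125). P3H2 exceeded P3H1 by 1.76 ± 0.51 on the log2 scale (SD, n = 6; exact p = 0.03125, adjusted over the 8 comparisons 0.125), in 6 of 6 pairs and by at least 1.07. P4HA3 lay below P4HA2 by -0.59 ± 0.29 (SD, n = 6; exact p = 0.03125, adjusted 0.125), also in 6 of 6 pairs. Against P4HA1, P4HA3 gave -0.46 ± 0.33 (SD, n = 6; exact p = 0.0625, adjusted 0.167), lower in all pairs but 1. With 6 pairs a comparison could pass after adjustment only if most of the 8 reached the smallest possible p. So the result that 0 of the 8 passed says little, and 2 had an unadjusted exact p under 0.05. CRTAP and P3H1 differed by 0.21 ± 0.46 (SD, n = 6; exact p = 0.28125). The 3 comparisons among the PLOD genes gave 0.00 to 0.16 (exact p of 0.46875 to 0.96875), and P4HA1 minus P4HA2 gave -0.13 ± 0.36 (SD, n = 6; exact p = 0.46875).

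Of 13 measured partners that work beside these genes in the endoplasmic reticulum, 0 passed in limma at their brightest probe set, and their median log2 difference was -0.29. P4HB, the beta subunit of prolyl 4-hydroxylase, gave -0.32 ± 0.16 (SE, limma adjusted p = 0.268). FKBP10, a prolyl isomerase that works with SERPINH1 and PLOD2, gave -0.67 ± 0.20 (SE, limma adjusted p = 0.0837) and was lower in 6 of 6 pairs. COLGALT1, which adds galactose to hydroxylysine, gave -0.37 ± 0.14 (SE, limma adjusted p = 0.146), also lower in 6 of 6 pairs. MIA2, which helps load collagen for export, gave 0.42 ± 0.16 (SE, limma adjusted p = 0.166), higher in 5 of 6 pairs. FKBP7, another isomerase of the endoplasmic reticulum, lay the other way at 1.14 ± 0.30 (SE, limma adjusted p = 0.0524). The disulphide isomerase TXNDC5 gave -0.30 at its brighter probe set and fell by 0.91 at the other (limma adjusted p = 0.0174).

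Among the substrate collagen chains, 1 of 14 measured fell and 0 rose at their brightest probe set, with a median of -0.09. COL12A1, a collagen that coats fibrils, fell by 0.76 (SE 0.17, limma adjusted p = 0.0280). COL2A1, the main cartilage collagen, gave 0.15 ± 0.19, COL11A1 gave 0.17 ± 0.15 and COL10A1 gave 0.11 ± 0.16 (SE), and none of the 3 passed. The brightest COL11A1 probe set had mean signals of 20174 in HZ and 18236 in RZ, and its dimmer ones also lay above 0. Of these, 1 rose by 0.76 (limma adjusted p = 0.0189). Those at 0.60 (limma adjusted p = 0.0525) and 0.47 (0.112) did not pass, and all 3 were higher in 6 of 6 pairs. The others gave 0.13 to 0.41 and did not pass. COL1A2, a chain of the collagen of bone and fibrous tissue, gave -1.12 ± 0.29 (SE, limma adjusted p = 0.0515) and COL1A1 gave -1.05 ± 0.34 (limma adjusted p = 0.105). COL6A1, a chain of the microfibrils around cells, gave -0.47 ± 0.15 (SE, limma adjusted p = 0.0958) and was lower in 6 of 6 pairs. COL1A1 stood at -2.23 over pairs 1 and 2 and at -0.46 over pairs 3 to 6. Outside the cell, 2 of 8 measured maturation genes rose and 1 fell, with a median of 0.06. The cross-linking oxidases LOX and LOXL4 rose by 3.18 ± 0.27 and 0.72 ± 0.13 (SE), and TGM2, a transglutaminase, fell by 0.89 (SE 0.17, limma adjusted p = 0.0174). Of those that did not pass, the procollagen protease ADAMTS2 gave -0.71 (limma adjusted p = 0.118) and the fibril-binding FMOD -0.49 (0.161). LOXL1 gave 0.24 (limma adjusted p = 0.484) and PCOLCE2 0.15 (0.636). ADAMTS2 and LOXL1 were near the floor, with HZ and RZ means of 21.4 and 42.8 for ADAMTS2 and 29.1 and 23.3 for LOXL1. ADAMTS2 was lower in 4 of 6 pairs.

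**Figure D4:**
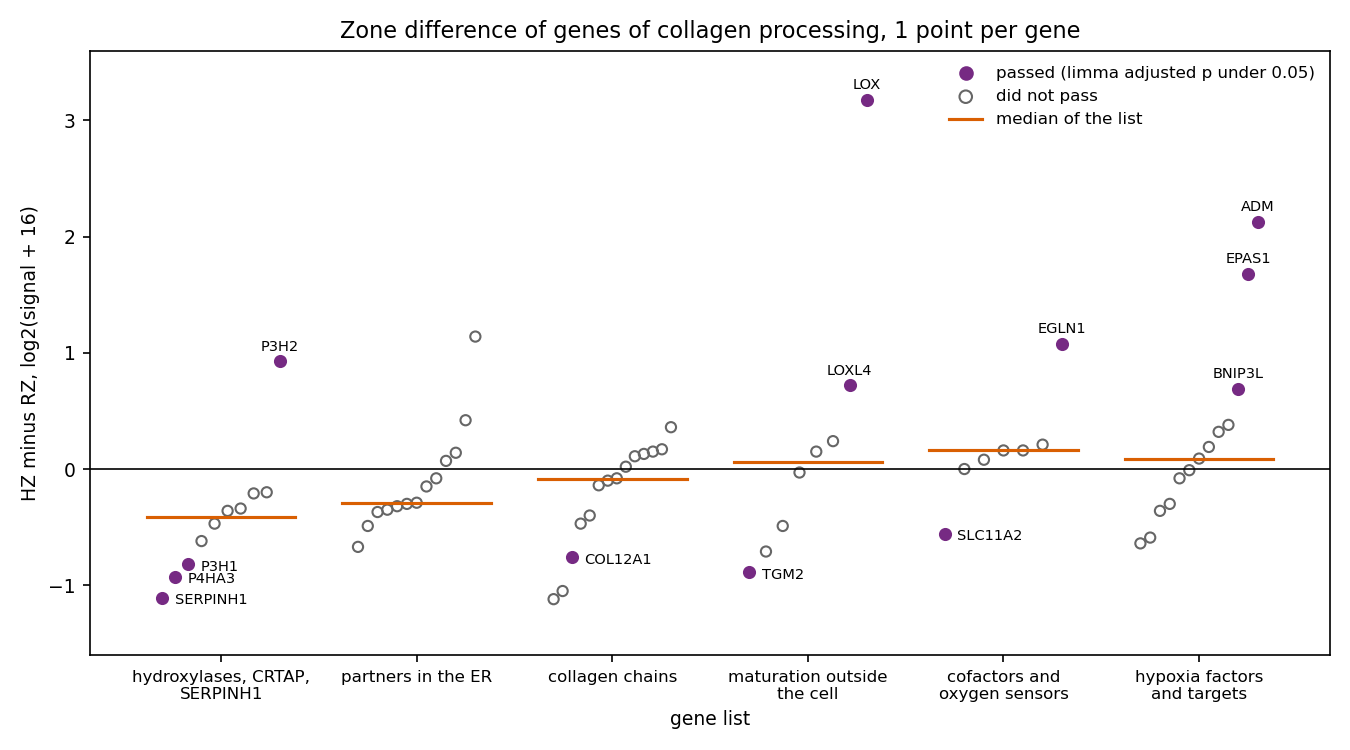
Log2 difference between HZ and RZ (vertical axis, log2(signal + 16)) for 1 probe set per gene in 6 lists, with filled points for genes that passed limma and a line at each list's median. The medians are -0.42 for the hydroxylases, CRTAP and SERPINH1, -0.29 for their partners and -0.09 for the collagen chains.

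P4HA1, P4HA2 and PLOD2 are known targets of hypoxia-inducible factors, and none of the 3 was among the genes that rose. Of 13 measured hypoxia factors and targets other than these, EPAS1, ADM and BNIP3L rose, at 1.68 ± 0.17, 2.13 ± 0.24 and 0.69 ± 0.15 (SE), 0 fell and 10 did not pass, with a median of 0.09. DDIT4 gave -0.64 (limma adjusted p = 0.0532), SLC2A1 -0.59, BNIP3 0.38 and VEGFA 0.32, none of which passed. Among 7 measured genes of cofactor supply and oxygen sensing, EGLN1, a prolyl hydroxylase of the same cofactor needs that marks HIF for breakdown, rose by 1.08 ± 0.15 (SE, limma adjusted p = 0.00536). The iron transporter SLC11A2 fell by 0.56 (SE 0.14, limma adjusted p = 0.0463), and the ascorbate transporter SLC23A2 gave 0.21.

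Markers of other cell types also differed between the zones. Of 10 fibroblast markers, PDGFRA (-1.01 ± 0.21, SE) and FAP (-1.20 ± 0.22) fell and 0 rose, with a median of -0.20. Their summed signal ran from 13904 to 19076 in HZ and from 16162 to 32904 in RZ, and POSTN was near the floor in both zones, at means of 9.51 and 5.53. Of 7 measured endothelial markers PECAM1 fell, with sums of 212 to 540 in HZ and 502 to 771 in RZ. A large part of these sums was PECAM1 itself, with means of 163 and 350. The others did not pass, at -0.76 for TIE1, -0.32 for TEK, -0.11 for CDH5, -0.03 for KDR, 0.08 for EGFL7 and 0.11 for VWF. VWF was near the floor at 7.86 and 5.93. Of 8 measured leukocyte and macrophage markers CSF1R, C1QA, C1QB and AIF1 rose and PTPRC fell, with sums of 1425 to 2963 and 1071 to 2734. The genes that rose were dim, with HZ and RZ means of 119 and 61.4 for CSF1R and 355 and 95.7 for C1QA. C1QB (151 and 34.5) and AIF1 (229 and 43.8) were near the floor in RZ. PTPRC was near the floor in HZ, at means of 17.5 in HZ and 149 in RZ. Its dimmer probe sets gave -0.24 and 0.19 and did not pass. CD14 gave -0.81 at its brighter probe set (limma adjusted p = 0.103) and fell by 1.02 at the other (limma adjusted p = 0.0254). Of 3 osteoclast markers ACP5 and CTSK rose, with sums of 7104 to 9958 and 2272 to 5645. Of 3 osteoblast markers, BGLAP, COL1A1 and COL1A2, 0 passed in limma, with sums of 1063 to 4344 and 1383 to 17688. Their RZ means were 333 ± 585, 1887 ± 2037 and 3304 ± 3663 (SD, n = 6), so the highest RZ sum does not stand for all RZ arrays. The dimmer probe sets of COL1A1 and COL1A2 gave 0.07 and -1.07 and did not pass. Both collagen genes are also in the fibroblast and collagen chain lists. The part of these cells in the differences of SERPINH1, P4HA3, P3H1 and P3H2 was not tested.

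For each gene that passed, the 3 named genes with the most similar set of 6 pair differences were found among 6271 genes with a mean signal of at least 100, by root mean square distance on the log2 scale. Nearest to SERPINH1 was CHPF, which lengthens chondroitin chains in the Golgi, at a distance of 0.20, followed by SNCAIP (0.25) and LRP12 (0.26). P4HA3 was nearest to IWS1 (0.14), the BMP receptor ACVR1 (0.16) and SPDL1 (0.18). P3H1 was nearest to the pyruvate kinase PKM (0.14), ARHGEF2 (0.17) and METTL9 (0.17). P3H2 was nearest to SH3RF1 (0.18), RFLNA (0.19) and TMEM127 (0.20).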

How the data were processed

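Total RNA of 6 HZ and 6 RZ fractions was hybridised to 1-colour arrays after biotin labelling, per the labels' protocols. How signals were summarised and normalized is not given in the sources used here. The deposited values are linear ratios, which for 90.77% of 24128 probe sets had a median of 1 over the 12 arrays and otherwise 1 fixed divisor. For probe sets with the fixed divisor, each array's ratios were taken as whole multiples of that array's step. For the others, a factor per probe set was sought that brought its values near whole multiples. A signal was so recovered for all probe sets. The search was checked on simulated ratios built from whole steps, which cannot show whether the deposited values have that structure. The tolerance grew with the value from 0.01 to at most 0.08 of a step, the largest distance was 0.0758, and 49 values lay at the table's floor of 0.01. Its unit assumes that a step is 0.1 signal units. The planned design assumed signals.

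Tests used log2(signal + 16) of 24016 probe sets that are not controls, in limma 3.58.1 (R 4.3.3) with the pair as a fixed block. Same-numbered arrays deviated together (correlations 0.124 to 0.447, lowest in pair 3, the 1 pair of 6 in which another number correlated better), so the numbers were taken as pairs, as the series description also has them. Symbols came from the platform annotation. Alternatives changed the block, constant, normalization, filter, variance model, probe set choice and pairs used. No depth exists for arrays, and their number limits the precision.

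The genes and lists were chosen with earlier results of these data known. The naming rule took all 10 genes, listed genes that passed, up to 4 others per list with the smallest adjusted p, defining cell type markers, and the 3 nearest genes of each passing gene. Other list genes named (such as P4HB, PPIB, COL2A1, COL11A1, TXNDC5 and IBSP), and dimmer probe sets of list genes, were chosen after their values were seen. The within-set values in a fit of all pairs were added after seeing the data. No sequences were printed, since the reference tables used here hold none.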

Additional observations from a re-analysis of the deposited data

Results flagged for a closer look

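The SERPINH1 signal of RZ-6 stood far above those of the other 5 RZ arrays, at 12.62 on the log2 scale, a gap that chance gives in about 1 in 20 groups. It was the 1 such array in 36 groups of values examined for the 12 probe sets, and without pair 6 SERPINH1 gave -1.13 (limma adjusted p = 0.0167). For PLOD3, HZ exceeded RZ in pairs 1 and 2 and lay below it in pairs 3 to 6, a difference of 0.78 between the sets, whose test gave an unadjusted p of 0.0463 and an adjusted p of 0.978 in limma.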

How the results depend on the processing

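Without the pair block (no replicate block) 505 probe sets rose and 326 fell, against 782 and 712 with it. P3H1 then lost its call and 0 genes of the 35 in the partner, maturation and collagen chain lists fell, against 2. With 1 added to the signal 368 rose and 215 fell, P3H1 lost its call and 0 list genes fell. With 64 added 1120 fell, and 5 list genes. On the deposited ratios 315 rose and 163 fell, with 1 of the 10 genes (SERPINH1) and 0 list genes lower. With a mean signal of at least 100, 1338 and 6 fell, with a variance trend 1167 and 6, and with a gene's probe sets averaged 4 list genes. In limma without pairs 3 and 4, 0 of the 10 genes passed as higher or lower (1 and 5 at an unadjusted p under 0.05), nor did any list gene fall, 1 rose, and 91 and 48 probe sets passed. In pairs 3 to 6 alone, 0 of the 10 were higher (1 unadjusted), 1 lower, 0 list genes lower (5 unadjusted), with 258 and 78 probe sets. In pairs 1 and 2 alone 0 of any kind passed in limma (2931 probe sets at an unadjusted p under 0.05). There PLOD3 turned to 0.16, in both kinds of fit, and PLOD1 and PLOD2 minus PLOD3 moved to -0.39 and -0.50. PLOD1 minus PLOD2 was -0.02 with probe sets averaged. With each pair left out, 1 of the 10 genes was higher and 1 to 5 lower, 1 to 3 list genes were higher and 0 to 3 lower, and 334 to 650 probe sets rose and 223 to 895 fell. The fewest lower genes came without pair 5 and the most without pair 3. Where 0 list genes fell, 3 to 10 did at an unadjusted p under 0.05 over 6 or 5 pairs. The 4 passing genes kept their direction in 16 of 16 settings each. They passed in 14 (SERPINH1), 13 (P3H2), 11 (P4HA3) and 6 (P3H1). The cause was not tested.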
